A study of Mus musculus with 2 samples.

Results

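The Klf genes encode Krüppel-like factors, transcription factors that bind GC-rich and CACCC-type DNA through C2H2 zinc fingers at their C-terminus. Described here are the peaks of Arid1b chromatin immunoprecipitation with sequencing (ChIP-seq) at 10 of them, Klf2, Klf3, Klf4, Klf5, Klf6, Klf7, Klf9, Klf10, Klf11 and Klf13. The members are the peaks with any part in one of these genes or within 10 kb of it, and there were 30 such peaks among the 8318 of the deposited list. The genes were chosen by the presence of peaks in this same list, so the number and strength of their peaks are given as a description and no test was made on them.

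Arid1b is a DNA-binding ARID subunit of BAF, a SWI/SNF complex that remodels chromatin. It was precipitated from primary dental mesenchyme cells, which were taken from apical tissue of the mandibular first molars of wild-type C57BL/6 mice at postnatal day 3.5 to 7.5 and cultured with 10% serum. The comparison group was input chromatin of the same kind of cells with no antibody. Each group had 1 library, so no value has a replicate check, and the labels used here do not say whether cells of several animals were pooled. The series' title and design concern Arid1a and mice with Gli1-CreER and a conditional Arid1a allele (fl/fl), but both samples are labelled as wild type and no library lacking Arid1a was analysed here. At the labelled cell type's markers, 9 of 10 dental mesenchyme genes had a peak within 1 kb of a start site, against 23.2% of all protein-coding genes, and Lhx6 had none. The same held for 0 of 5 markers each of endothelium, blood and immune cells, and neurons and glia. Within 10 kb there was also a peak at the endothelial gene Erg (3.82) and at the macrophage gene Cd68 (5.39). A peak list holds no expression, so this compares peaks only.

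Krüppel-like factors fall into groups by the proteins they recruit. Klf3, Klf8 and Klf12 bind the corepressor CtBP, Klf1, Klf2, Klf4, Klf5, Klf6 and Klf7 act mostly as activators through acetyltransferases, and Klf9, Klf10, Klf11, Klf13, Klf14 and Klf16 carry a Sin3a-binding repressor motif. Several members are early response genes to serum, growth factors, hormones or mechanical stress, and in teeth Klf4 has been studied in odontoblast differentiation.

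RefSeq promoter windows were matched for 8 of the 10 genes, and Klf5 and Klf10 had no entry. The 250 bases before the start site (GRCm38.p6, the assembly that mm10 names) are shown for the 4 genes with the highest fold among peaks that reach the window from 250 bases before to 50 after the start. Capitals mark bases inside a deposited Arid1b peak, so the position of the signal relative to the start, which follows the last base, can be read from the letters. Klf3 lies at chr5:64803271-64803520 (+), Klf11 at chr12:24651121-24651370 (+), Klf9 at chr19:23140976-23141225 (+) and Klf7 at chr1:64121390-64121639 (-), each written 5′ to 3′ on the gene's strand.
Klf3: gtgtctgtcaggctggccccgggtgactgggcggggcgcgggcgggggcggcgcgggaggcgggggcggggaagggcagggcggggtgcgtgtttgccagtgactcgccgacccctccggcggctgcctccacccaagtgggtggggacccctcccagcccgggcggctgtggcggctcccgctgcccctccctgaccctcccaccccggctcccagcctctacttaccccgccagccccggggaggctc
Klf11: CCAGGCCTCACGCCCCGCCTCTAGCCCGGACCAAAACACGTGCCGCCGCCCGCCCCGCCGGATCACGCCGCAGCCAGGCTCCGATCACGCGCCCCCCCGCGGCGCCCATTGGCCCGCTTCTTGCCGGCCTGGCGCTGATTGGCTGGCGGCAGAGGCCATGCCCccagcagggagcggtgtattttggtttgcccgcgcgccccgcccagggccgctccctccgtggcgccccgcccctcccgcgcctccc
Klf9: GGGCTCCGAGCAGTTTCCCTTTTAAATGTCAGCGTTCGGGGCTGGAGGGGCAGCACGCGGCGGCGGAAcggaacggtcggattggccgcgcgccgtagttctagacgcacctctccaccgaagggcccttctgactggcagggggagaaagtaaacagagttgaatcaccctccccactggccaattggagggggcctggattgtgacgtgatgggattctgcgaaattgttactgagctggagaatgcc
Klf7: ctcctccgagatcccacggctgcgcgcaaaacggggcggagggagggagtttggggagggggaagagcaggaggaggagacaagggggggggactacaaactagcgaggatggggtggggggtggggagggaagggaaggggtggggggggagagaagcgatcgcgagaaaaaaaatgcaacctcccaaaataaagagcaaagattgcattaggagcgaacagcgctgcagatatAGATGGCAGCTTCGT

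The printed bases end at the start, so they show only its upstream side. In Klf11 and Klf9 a peak edge was followed by an uncovered stretch up to the start. At Klf11, 163 of the 250 bases lay in a peak and the 87 bases next to the start did not. At Klf9, 68 bases lay in a peak, all at the far end, and the next 182 bases did not. At Klf7 only the 15 bases next to the start were covered, and at Klf3 none was, because its strongest peak began downstream of the start.

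Promoters of the members were rich in GC. The 8 windows of 300 bases had 58.3% (Klf7), 63.0% (Klf6), 63.3% (Klf9), 69.3% (Klf2), 72.0% (Klf13), 74.3% (Klf4), 76.7% (Klf3) and 77.7% GC (Klf11). Their median was 70.7%, against 56.3% over 21263 windows of protein-coding genes and 64.3% over the 4953 windows with an Arid1b peak within 1 kb of the start. CpG dinucleotides numbered from 16 in Klf7 to 42 in Klf11 with a median of 30.5, against medians of 13 over all windows and 25 over those with a peak. All 8 members thus stood above the median of all windows in both measures, and Klf7, at the 56.2nd percentile of GC, was the nearest to it. Against the windows with a peak, Klf6, Klf7 and Klf9 lay below the GC median. Klf6 (23 CpGs) and Klf7 (16) also lay below the CpG median of those windows. High GC was also found without a start site peak. Klf4, with 74.3% GC and 40 CpGs, had no peak within 1 kb of its start, and neither had Klf15 outside the 10, with 73.3% GC and 47 CpGs.

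**Figure D1:**
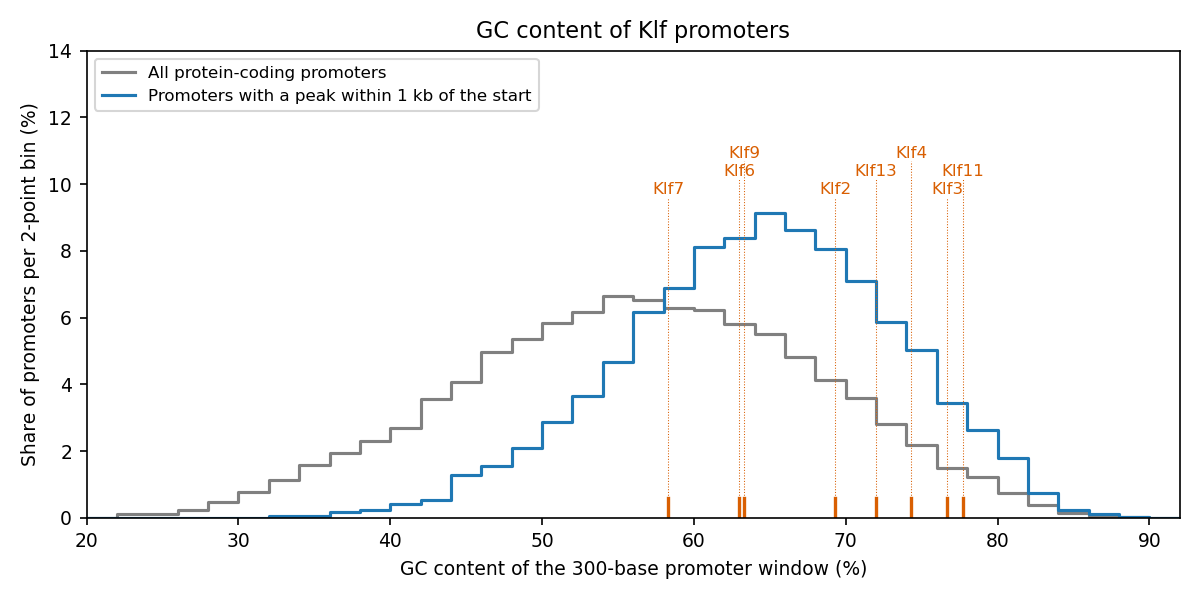
Share of promoters (%) in bins of 2 percentage points of GC content of the 300-base window, for all protein-coding promoters (grey line) and for those with an Arid1b peak within 1 kb of the start (blue line), with the 8 matched Klf genes as orange marks. The Klf marks run from 58.3% (Klf7) to 77.7% (Klf11), all above the median of all promoters at 56.3%. Klf6, Klf7 and Klf9 lie below the median of promoters with a peak, 64.3%.

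Motifs were searched in the same windows on both strands. The GC box GGGCGG, which Sp and Klf factors bind, was in 7 of 8 member windows with 21 matches in all, 6 of them in Klf3, and Klf9 was the exception. It was in 46.2% of all windows and 73.1% of those with a peak at the start. The CACCC box CCACCC was in 4 of 8 (Klf2, Klf3, Klf7 and Klf13, with 8 matches) against 33.6% of all windows and 37.8% of those with a peak. Klf3 and Klf7 held 3 matches each, and all 6 lay in bases without a peak. The match in Klf13, 23 bases before the start, lay in a peak, and that in Klf2 did not.

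The cyclic AMP response core TGACG was in 5 of 8, against 23.6% of all windows and 34.9% of those with a peak at the start. The full element TGACGTCA, which contains it, was in 0 of 8, against 2.23% and 3.29%. The E-box CACGTG was in 3 of 8 (Klf4, Klf6 and Klf11), against 7.84% and 11.1% in the same order. CCAAT was in 4 of 8, against 38.2% and 38.6%, with 4 matches in Klf6, 3 in Klf9 and 2 each in Klf11 and Klf13. The AP-1-like pattern TGANTCA, with any base at its centre, was in 1 of 8, against 6.99% and 3.88%. The match was TGAATCA in Klf9, 89 bases before the start and outside the peaks. The TEAD motif GGAATG was in 0 of 8, against 13.6% and 10.6%, and the CArG box of serum response factor was in 0 of 8, against 1.52% and 1.39%. At Klf11 the peak covered the E-box, both CCAAT boxes and 2 of the 4 GC boxes. At Klf13 a peak covered the GC boxes 27 and 6 bases before the start, but not the one 131 bases before it. A match describes letters only, and with 8 windows these counts are not a measure of the family.

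Peaks lay near the start site at 9 of the 10 genes. A part of a peak within 1 kb of the start (of either gene boundary for Klf5 and Klf10) was present at all but Klf4, against 23.2% of 21887 protein-coding genes. Any peak as far as 10 kb from the gene, the property by which the genes were chosen, was present at 31.7% of all protein-coding genes. In counts, 6943 protein-coding genes had such a peak and 5084 had one within 1 kb of a start. At least 4 peaks within 10 kb were counted at 5 of the 10 (Klf3, Klf6, Klf7, Klf9 and Klf13), against 2.39% of all genes and 7.53% of those with a peak. The members had a median of 3.5 peaks and all genes with a peak a median of 1. Because the genes were picked from this list, the differences from those shares are not read as a property of the family.

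**Figure D2:**
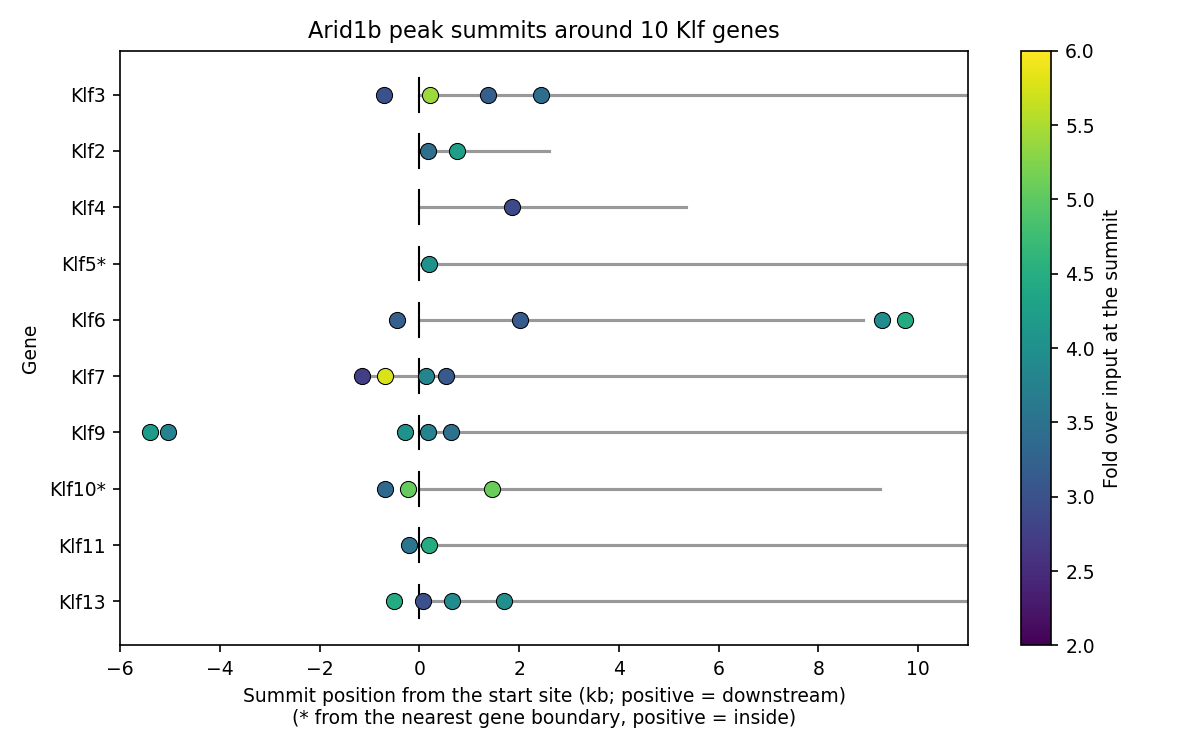
Position of each of the 30 summits (points, coloured by the authors' fold over input) in kb from the start site, positive downstream, with gene bodies as grey lines cut at the right edge. Klf5 and Klf10 (asterisks) are drawn from the gene boundary nearest to their peaks, positive inside the gene. Most points lie close to 0, with the exceptions of a pair 5402 and 5034 bp upstream of Klf9 and a pair past the end of Klf6.

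Of the 26 peaks of the 8 genes with a known start, 16 had the summit within 1 kb of it, 10 downstream and 6 upstream. Over the 8070 peaks on the chromosomes with annotated starts, 4638 had the summit within 1 kb of a protein-coding start, and 74.8% of these were downstream. Of the 16 Klf summits, 1 was within 100 bp of the start, at Klf13, and the share among the 4638 was 10.9%. With 16 summits, neither share is read as a difference from the list. The peaks had a median width of 310 bp (307 bp over the list), and the widest, of 979 bp, lay inside Klf6.

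The fold of the Klf peaks was ordinary for the list. The authors' fold over input at the summit ranged from 2.74 to 5.78 with a median of 3.79, against a range of 1.37 to 17.1 and a median of 3.72 over all peaks. The pileup of fragments at the summit, recovered from the fold and p-value, ranged from 29 to 62 against a genome background of 8.68. An exact Poisson 95% interval of that pileup gave the counting error of each fold, stated in brackets hereafter. For 26 of the 30 peaks, and for 85.5% of the list, the interval included the median fold of the list. The 4 that lay above it were 1 peak each of Klf7 and Klf3 and 2 of Klf10, which are also the 4 with a fold of at least 5. Genes with a peak of that fold made up 3 of the 10 members and 5.21% of all protein-coding genes. In counts, 1140 of the 6943 protein-coding genes with a peak within 10 kb had one of that fold. All members were chosen for having a peak, so the difference from 5.21% is not read as a property of the family. Such peaks were 13.3% of the Klf peaks and 10.2% of the list. Among the 45 pairs of members, the intervals of the strongest peaks did not overlap in 2, Klf7 with Klf4 and Klf3 with Klf4. Overlap of intervals is not a test of a difference, so the order of the other members by strongest peak is left unresolved.

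**Figure D3:**
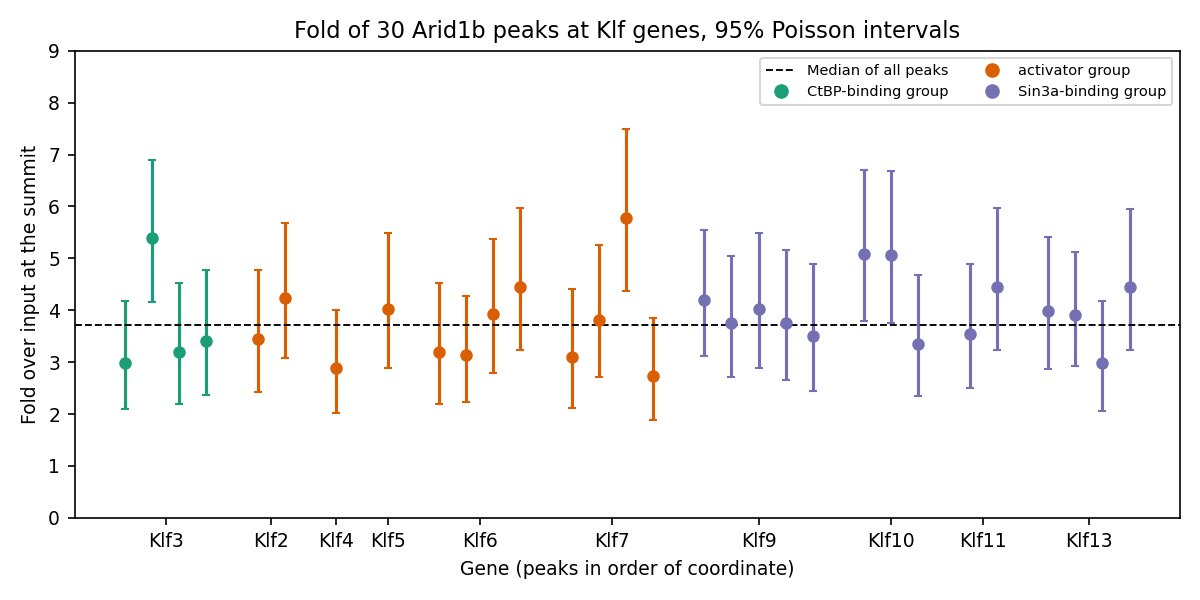
Authors' fold over input at the summit of the 30 peaks (points) with exact Poisson 95% intervals of the pileup (bars), by gene and in order of coordinate, coloured by the group of Klf protein. The dashed line is the median of all peaks, 3.72, and 26 of the 30 intervals include it.

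Klf3, the one CtBP-binding member, is a widely expressed repressor. The gene (chr5:64803521-64832901) had 4 peaks. The main one, chr5:64803548-64804281, had its summit 222 bp downstream of the start and a fold of 5.40 (4.16 to 6.90), the largest pileup of the family at 62. A weaker one lay 709 bp upstream, with 2.99 (2.09 to 4.17), and 2 further ones lay 1380 and 2442 bp into the gene, with 3.20 (2.19 to 4.53) and 3.41 (2.36 to 4.77). The 4 peaks thus spanned 3615 bp around the start, of which 1588 bp lay in peaks. A single summit was higher, although its interval overlapped those of its neighbours. All 4 peaks also lie inside Gm38457, a protein-coding annotation that overlaps Klf3 by 5660 bp, and cannot be assigned to only 1 of the 2 genes.

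Among the activator members, Klf2 is known for quiescence of endothelial cells and lymphocytes. The gene (chr8:72319062-72321654) had 2 peaks, both inside it. Their summits lay 179 and 752 bp downstream of the start, with folds of 3.45 (2.42 to 4.78) and 4.24 (3.08 to 5.69). No base of its 300-base promoter window was in a peak.

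Klf4, a reprogramming factor that also acts in epithelial barrier formation, had the lowest fold of the 10 by strongest peak. Its single peak, chr4:55530540-55530748, lay inside the gene (chr4:55527137-55532475) with the summit 1857 bp downstream of the start. The fold was 2.89 (2.02 to 4.0) from a pileup of 34 over an expected level of 11.1, at the 8.11th percentile of the list. Klf4 was the only member without a peak within 1 kb of the start.

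Klf5, which promotes proliferation in gut epithelium and smooth muscle, also had 1 peak. It lay at chr14:99298780-99299099, 196 bp inside the low-coordinate boundary of the gene (chr14:99298691-99313412), with a fold of 4.03 (2.88 to 5.49). Which boundary is the start was not determined, since the promoter table has no entry for it.

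Klf6, an early response gene, had its 2 highest folds past the end of the gene. The gene (chr13:5861489-5870393) had a peak 456 bp upstream of the start with a fold of 3.20 (2.19 to 4.53) and the wide one 2017 bp downstream with 3.14 (2.24 to 4.28). The other two had summits 371 and 834 bp beyond it. They were at chr13:5870646-5870861 with 3.92 (2.79 to 5.37) and at chr13:5871165-5871377 with 4.44 (3.23 to 5.97). All 4 intervals overlap, and whether the end peaks differ in strength from the start peak was not tested. Over 8070 peaks on the chromosomes with annotated starts, 94 (1.16%) had the summit within 1 kb past a gene end and over 1 kb from every start.

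Klf7, known for axon growth in neurons, held both the strongest and the weakest peak of the family. The gene spans chr1:64029448-64122345, and the start of the promoter table lies 956 bp inside its upper boundary. The strongest, chr1:64121902-64122256, had its summit 695 bp upstream of that start and 261 bp inside the upper boundary, with a fold of 5.78 (4.38 to 7.5) at rank 365 of 8318. The weakest, chr1:64122442-64122646, began 185 bp further on and had 2.74 (1.89 to 3.86), at the 4.98th percentile of the list. Of the 20 pairs of neighbouring peaks in the family, this was the only one whose intervals did not overlap. The other two lay 132 and 528 bp downstream of the start, with 3.82 (2.71 to 5.25) and 3.10 (2.11 to 4.4). The strongest and weakest peaks also lie inside the long noncoding RNA gene Gm35880, which overlaps the upper end of Klf7 by 779 bp.

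All 4 Sin3a-binding members had a start site peak, Klf10 by the boundary criterion. Klf9, induced by glucocorticoid and thyroid hormone, had the most peaks, 5, around a gene at chr19:23141226-23168129. Summits lay 285 bp upstream of the start and 173 and 641 bp downstream, with folds of 4.03 (2.88 to 5.49), 3.76 (2.66 to 5.17) and 3.51 (2.45 to 4.89). These 3 peaks were separated by 196 and 99 bp, and the first gap holds the start and the uncovered stretch before it in the printed sequence. A second pair lay 5402 and 5034 bp upstream, at chr19:23135123-23135988 and chr19:23136071-23136293, with 4.2 (3.12 to 5.54) and 3.75 (2.71 to 5.05). Both are inside the long noncoding RNA gene 2410080I02Rik, and the intervals of the 5 folds overlap.

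Klf10 is a TGF-beta-inducible early gene (chr15:38291464-38300711). It was the only member with 2 peaks of fold above 5, namely chr15:38299064-38299984 with 5.09 (3.79 to 6.70) and chr15:38300822-38301104 with 5.06 (3.76 to 6.68). The first had its summit 1457 bp inside the upper boundary of the gene and the second 236 bp outside it. The remaining one, 697 bp outside, had 3.35 (2.34 to 4.67). All 3 lie inside the long noncoding RNA gene Gm35248, which overlaps Klf10 by 1965 bp.

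Klf11, a close relative of Klf10, had 2 peaks placed on either side of the start of the gene (chr12:24651371-24662782). The upstream one, chr12:24650990-24651283, had its summit 208 bp before the start and 3.55 (2.5 to 4.9). The downstream one, chr12:24651404-24651698, had its summit 184 bp after it and 4.44 (3.23 to 5.97). The 120 bp between them hold the start.

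Klf13, first described as a regulator of chemokine expression in T cells, had 4 peaks across the start of the gene (chr7:63886351-63938915). In the direction of transcription the first lay 509 bp upstream with 4.44 (3.23 to 5.96), and the second, over the start itself (summit 77 bp downstream), had 2.98 (2.05 to 4.18). The other two lay 658 and 1696 bp downstream, with 3.91 (2.92 to 5.13) and 3.99 (2.87 to 5.42). The peak at the start was the lowest of the 4, but its interval overlapped those of the others. The peak at 658 bp had the highest pileup of the gene, 50, over an expected level of 12.0, the highest of the 30 peaks.

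The gaps between neighbouring peaks of a member were also measured. Over the 20 neighbouring pairs the gap between peak edges ranged from 82 to 7000 bp with a median of 345 bp, and 13 gaps were under 500 bp. They are counted as deposited, each as a peak of its own. No peak was shared by 2 members, and 11 of the 30 peaks lay inside another annotated gene (at Klf3, Klf7, Klf9 and Klf10). The gaps and this share were not computed for other genes or the whole list, so neither is read as a trait of the members. Other genes with a Klf peak within 10 kb were the long noncoding RNA genes Gm12506 and Gm34343 at Klf4 and 1700016G22Rik at Klf6, and the microRNA gene Mir1192 inside Klf9.

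Beyond these clusters the surroundings of the genes were free of peaks for some distance. The peak farthest from its gene within the 10 kb limit was at Klf9, 5238 bp away (fold 4.2), and the nearest one outside the limit was at Klf13, 69215 bp away (fold 2.94). The next peak lay 83695 bp from Klf10, 104026 bp from Klf7, 105304 bp from Klf9, 168351 bp from Klf11, 172823 bp from Klf2, 176459 bp from Klf4, 252707 bp from Klf5, 274698 bp from Klf3 and 323040 bp from Klf6. All 10 members thus had no other peak between 10 and 50 kb, a distance chosen after these values were seen. Klf16, a further Klf gene with peaks within 10 kb, had its next peak 45858 bp away, inside that distance. The next peak was likewise over 50 kb away for 56.4% of all genes with a peak within 10 kb, and for 72.0% of those with no other protein-coding gene within 10 kb. Of the 10 members, 7 had no other protein-coding gene within 10 kb. Klf3 and Klf13 each overlapped one, Gm38457 and E030018B13Rik, and Klf11 lay 3051 bp from Cys1. The members' median distance to the next protein-coding gene was 41100 bp, against 1750 bp over all genes with a peak. The part of gene spacing in the result was not tested further.

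**Figure D4:**
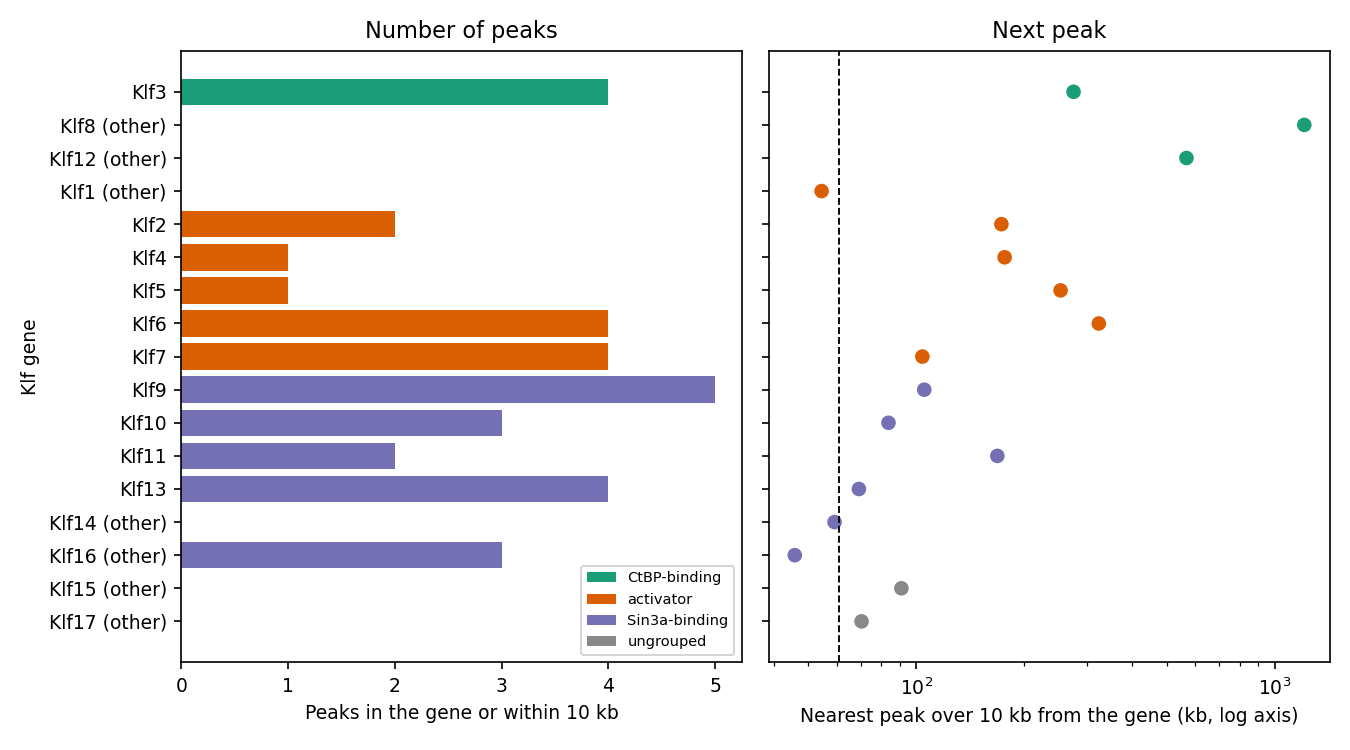
Number of Arid1b peaks in each of 17 Klf genes or within 10 kb (left, bars) and distance in kb on a log axis from each gene to its nearest peak over 10 kb away (right, points), coloured by the group of Klf protein. The dashed line is the median of all genes with a peak, 60900 bp, and all 10 described genes lie above it.

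Of the other 7 Klf genes, 6 had no peak within 10 kb. Klf16, a Sin3a-binding member of the family that was not among the 10, met the same distance limit with 3 peaks of 3.62 (2.60 to 4.91), 3.92 (2.79 to 5.37) and 3.67 (2.60 to 5.05). The second had its summit 173 bp inside the upper boundary of the gene (chr10:80567121-80577296), and all 3 also lay within 10 kb of the protein-coding genes Rexo1 or Abhd17a. Klf1, the erythroid factor, Klf8, Klf12, Klf14, Klf15 and Klf17 had none, and their nearest peaks lay from 54471 bp (Klf1) to 1208430 bp (Klf8) away. In all, 11 of 17 Klf genes had a peak within 10 kb, against 31.7% of all protein-coding genes. By group these were 1 of 3 CtBP-binding genes, 5 of 6 activators, 5 of 6 Sin3a-binding genes and 0 of 2 others. Whether the groups differ was not tested.

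The Sp genes, whose proteins share the zinc finger type of the Klf family, had a peak within 10 kb at 7 of 9 and a start site peak at 6, against 31.7% and 23.2% of all protein-coding genes. Their strongest peaks reached 17.1 (14.6 to 19.9) at Sp2, 8.26 (6.56 to 10.3) at Sp1 and 7.21 (5.65 to 9.06) at Sp9. The interval of Sp2 did not overlap that of the strongest Klf peak, at Klf7 (4.38 to 7.5), whereas those of Sp1 and Sp9 did.

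Genes for proteins that work with or control Klf factors also carried peaks. Of 22 listed cofactors and regulators, 15 had a start site peak and 18 had a peak within 10 kb, against 23.2% and 31.7% of all protein-coding genes. The highest start site peak was at the deacetylase gene Hdac2 (6.76, 5.40 to 8.36). The MEF2 genes, which act upstream of Klf2 and Klf4, followed with 5.42 (4.07 to 7.08) at Mef2d and 5.40 (4.16 to 6.90) at Mef2a, and Mef2c had none. The deacetylase gene Hdac1 had 5.27 (3.94 to 6.91). Yap1, the coactivator of the Hippo pathway, had 4.54 (3.32 to 6.08). The acetyltransferase gene Ep300 had 4.44 (3.42 to 5.69). The corepressor gene Sin3a, whose product binds Klf9, Klf10, Klf11 and Klf13, also had 4.44 (3.23 to 5.97). Ctbp2, a corepressor bound by Klf3, had 4 peaks of up to 5.47 but none within 1 kb of a start, and Ctbp1 had none.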

How the data were processed

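The authors deposited 1 narrow peak list of the Arid1b ChIP library over the input library. The submitters' processing notes list MACS2 2.1.1, Bowtie2 2.2.5, FastQC 0.11.8, Picard and the mm10 build, with no order or settings. Per the file's layout, the authors' values are a fold ratio at the summit, the p-value and the q-value as -log10, and a summit offset. The deposited score is 10 times the -log10 p-value without decimals in 100% of peaks and was not used. Read totals, filters and duplicate removal are not stated in the labels, so precision is judged from the summit pileups.

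Computed here (Python 3.11.15, NumPy 2.4.6, pandas 2.3.3, SciPy 1.17.1, matplotlib 3.10.9) were the pileup and expected level that solve the authors' fold and Poisson p-value. They solved both within 0.001 in 100% of peaks. A version on 300 peaks simulated with the same formulas recovered 100% of pileups, which checks the solving step only. Each fold's interval takes exact Poisson 95% limits of the pileup, keeps the expected level constant and covers counting error only. It makes no allowance for the summit having been picked within a peak that passed the authors' calling. Genes came from the RefSeq table of GRCm38.p6 and start sites from the RefSeq promoter table, which held starts for 17492 of 21887 protein-coding genes. For the others either boundary counted. Exons, introns and sequence outside the promoter windows were not used here. Coordinates are 1-based.

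The members, the lists and the rule for named genes (all members, the other Klf and the Sp genes, neighbours sharing a peak, and the 6 cofactor genes with the highest start site peaks) were chosen with earlier results of these data known. The Klf groups, Sin3a, Ctbp1, Ctbp2, Mef2c, Lhx6, Erg and Cd68 were named after the values were seen. No test was made. Alternatives covered thresholds, windows, summits, local input and merging of peaks. A further marker list is not reported here.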

Additional observations from a re-analysis of the deposited data

How the results depend on the processing

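The number of Klf peaks (30), their median fold (3.79) and the number of members with a start site peak (9 of 10) moved with several choices. With a -log10 q of at least 10 there were 10 peaks with a median fold of 4.44, and 6 members had a start site peak. With a fold of at least 5 there were 4 peaks with a median of 5.24, at 3 members. There were 13 peaks where the expected level was the genome background, with a start site peak at 6 members. There were 18 peaks with any part inside a gene body, and 17 once peaks closer than 500 bp were merged. A -log10 q of at least 5, the summit in place of any part, a 25 kb flank and assignment to the nearest protein-coding gene gave 26 to 30 peaks and medians of 3.79 to 3.92. Windows of 500 bp and 5 kb around the start gave 9 and 10 members, and either gene boundary, added after the data were seen, gave 9. The summit pileups of 29 to 62 limit what can be told apart. No paired analysis was possible because each group had 1 library and no test was made.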
